A study of Mus musculus with 58 samples.

Results

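Neat1 and Malat1, a pair of long RNAs that stay in the nucleus, were followed across lung, liver and forestomach of mice dosed with BaA, short for benz(a)anthracene, which belongs to the polycyclic aromatic hydrocarbons. In lung, Neat1 was 2.37-fold higher at the middle dose and 3.03-fold higher at the high dose than in vehicle controls. The high-dose mean includes mouse 19, at a log2 ratio of 1.88, while the other high-dose lungs lay between -0.50 and -0.07. In liver Neat1 was 4.53-fold to 5.52-fold lower at all 3 doses, and in forestomach its groups overlapped. Malat1, read by 1 probe, differed in the same directions in lung at these doses and in liver. The differences were 0.31 to 0.53 on the log2 scale after loess normalisation. Under other processing they reached 1.15, in lung at the middle dose with each array centred on its median. That centring moved the median of probes about as bright as Malat1 by 0.50 there. The 3 probes of interval C on the same chromosome, described below and not assigned to a gene, went the other way in lung. They differed from the controls by -0.54 to -0.51 at the middle dose and by -0.69 to -0.60 at the high dose. The members are the 7 probes of the array that map to either gene, out of 55681 gene probes, and the genes are 2 of the 20018 that could be named. Of these probes, 5 are named NEAT1 in the array files, 1 carries the RefSeq accession of Neat1 (NR_003513) and 1 carries that of Malat1 (NR_002847). The genes were chosen by measured values of these same arrays, the changes of Neat1 in lung and liver, so their levels and changes with dose are given as a description, without a test.

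The animals were male mice of a transgenic strain (MutaTMMouse in the labels), 10 weeks of age, all gavaged daily with olive oil for 28 days. The oil held no BaA in the vehicle controls (D0) and BaA at 20, 40 or 80 mg/kg-bw/day in the dose groups D1, D2 and D3, and tissue was frozen 72 h after the last gavage. Lung was measured in 5 mice of every group, liver in 5, 5, 5 and 4 mice from D0 to D3, and forestomach in 4, 5, 5 and 5. The 58 arrays came from 20 mice numbered across tissues, and each array carried the Cy5-labelled RNA of 1 tissue piece against a Cy3-labelled reference RNA pooled from 11 mouse cell lines. A level is the log2 ratio of tissue to reference after loess normalisation, so levels of the same probe can be compared between tissues and doses, while levels of different probes cannot. RNA came from whole tissue pieces, so fewer cells of a type and less RNA per cell cannot be told apart.

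Neat1 is the RNA scaffold of paraspeckles, nuclear bodies that form around its long isoform and hold RNA-binding proteins such as SFPQ and NONO. A short isoform shares the 5′ end of the long one and does not build paraspeckles by itself. Malat1 is an abundant RNA of nuclear speckles, where splicing factors are stored, and both RNAs end in a triple helix that RNase P exposes by cutting off a tRNA-like piece. In the RefSeq gene table (assembly GRCm38.p6) the genes lie side by side on chromosome 19. The promoter of Malat1 is shown because it is the regulatory sequence of the pair that the RefSeq promoter table holds, at chr19:5802623-5802922 of GRCm38.p6 on the minus strand. It runs 5′ to 3′ over 250 bases before the start of the transcript, in lower case, and the first 50 transcribed bases, in capitals.
Malat1 promoter: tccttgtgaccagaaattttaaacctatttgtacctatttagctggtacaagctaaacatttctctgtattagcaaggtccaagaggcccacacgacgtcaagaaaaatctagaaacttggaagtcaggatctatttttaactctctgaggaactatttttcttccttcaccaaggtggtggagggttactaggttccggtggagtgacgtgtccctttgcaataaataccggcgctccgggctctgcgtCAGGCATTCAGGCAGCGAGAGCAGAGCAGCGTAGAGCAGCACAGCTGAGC
Its GC content was 47%, against a median of 52.7% over the 32851 promoters of the same length in the table. GCGTG, the core of the site bound by the aryl hydrocarbon receptor, had 0 matches on either strand of this window and was held by 32.4% of all promoters. The heat shock element cores GAANNTTC and TTCNNGAA also had 0 matches each, against 7.86% and 8.52% of promoters. The E-box CACGTG, whose letters do not overlap those of the heat shock cores, had 0 matches as well and was held by 7.15%. These counts say only which letters are in the window.

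All 7 probes were well above background in Cy5 on all 58 arrays, and 0 gene spots were saturated in either channel. The share of probe spots above background in Cy5 was 42.8% to 53.8% for lung arrays, 32.8% to 44.6% for those of liver and 36.8% to 68.5% for forestomach arrays. The arrays of each tissue lay on 3 slides, and every slide held all 4 dose groups. For lung and for liver, 5 of 5 marker genes were higher in every array of that tissue than in any array of the others. For forestomach, 4 of 5 squamous markers had their highest median there, but only 1 of 5 was free of overlap, and the forestomach pieces also carried markers of the glandular stomach. The leading probe of Neat1, the brightest of its 6 in Cy5, is used below unless another is named.

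Neat1 differed between tissues already in the controls, and its level was most variable in control liver. In control lungs it was at -1.21, -1.55, -1.59, -1.44 and -1.30 in mice 1 to 5. In control livers the same mice gave 0.82, -0.99, 0.55, -0.29 and -2.14. In the control forestomachs of mice 1 to 4 it was at -0.02, -0.69, -0.67 and -0.56. The lungs lay within a narrow range below all 4 forestomachs, whereas the control livers spanned a range that held all of these. The SD was 1.20 in liver (n = 5), 0.16 in lung (n = 5) and 0.31 in forestomach (n = 4).

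In lung, Neat1 overlapped its controls at D1 and lay above them at D2 and D3. At D1 it was at -1.36, -1.99, -1.29, -1.53 and -1.64 in mice 6 to 10, within or below the range of the controls. At D2 it was at -0.16, -0.39, -0.42, -0.18 and 0.27 in mice 11 to 15, every one above the highest control. At D3 it was at -0.30, -0.07, -0.11, 1.88 and -0.50 in mice 16 to 20, again all above the controls, with mouse 19 far above the others. The difference from D0 was -0.15 (SE 0.30) at D1, 1.25 (SE 0.30) at D2 and 1.60 (SE 0.30) at D3 on the log2 scale. Each SE here and below assumes 1 spread shared by all groups of its model. The SDs of these lungs were 0.16, 0.28, 0.28 and 0.97 from D0 to D3 (n = 5 each). Among all probes tested in lung, 3.36% were higher at D2 without overlap and 4.85% at D3. The difference between group medians at D3, which gives mouse 19 less weight, was 1.33. Within the single slides the D3 difference ranged from 1.07 to 3.47, and the slide with 3.47 was the one that held mouse 19. The Cy3 signal of the same probe changed by 0.11 or less in each lung comparison.

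The B cell markers Cd79a, Cd79b and Ms4a1 were also measured in these lungs. Their mean log2 ratio ranged from 0.0385 to 0.73 in D0, from 0.42 to 1.24 in D1, from 0.92 to 1.72 in D2 and from 0.73 to 0.96 in D3. By limma, 0 of 3 markers were called at D1, with differences from D0 of 0.24 to 0.45, 3 of 3 at D2 and 1 of 3 at D3, against 0%, 0.764% and 2.60% of all genes tested in lung. Markers of other tissue varied as well. Those of fat ranged from 1.19 to 2.39 in D0, 1.14 to 2.65 in D1, 2.19 to 6.33 in D2 and 1.02 to 2.52 in D3. Squamous markers reached 3.87 and skeletal muscle markers 5.09 in D0, against at most 1.52 and 1.58 in the dosed groups. The part of B cells and of this other tissue in the lung result was not tested.

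In liver, Neat1 was lower at every dose, with little spread among the dosed animals. At D1 it was at -2.54, -2.54, -2.93, -2.68 and -2.57 in mice 6 to 10. At D2 it was at -2.74, -3.05, -2.98, -2.90 and -2.71 in mice 11 to 15. At D3 it was at -2.97, -2.42, -2.42 and -2.55 in mice 16 to 19. No dosed liver overlapped a control liver, although the lowest control, mouse 5 at -2.14, lay close to the highest dosed livers at -2.42. The difference from D0 was -2.24 (SE 0.36) at D1, -2.46 (SE 0.36) at D2 and -2.18 (SE 0.39) at D3. Among all probes tested in liver, 0.895%, 1.83% and 2.86% were lower without overlap at D1, D2 and D3. These comparisons share the control livers, whose SD of 1.20 (n = 5) stands against 0.17, 0.15 and 0.26 in D1, D2 and D3 (n = 5, 5 and 4). The SEs above assume 1 spread for all 4 groups, so they are smaller than the spread of the controls implies. Without mouse 5 the differences were -2.67, -2.90 and -2.61. Within slides they ranged from -3.72 to -1.15, and they were smallest on slide 1, which held control mice 2 and 5. The liver markers (Alb, Apoa1, Ttr, Cyp2e1 and Serpina1a) had a mean log2 ratio of 7.02 to 7.44 in D0 and 6.88 to 7.60 in the dosed groups.

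In forestomach, Neat1 differed from D0 by -0.35 at D1, -0.25 at D2 and -0.27 at D3, with an SE of 0.16 each, and by 0.0331 at D2 with median centring. Median centring moved the median of probes about as bright as Neat1 by 0.25 at D2. The controls ranged from -0.69 to -0.02 and the dosed groups from -1.19 to -0.46, so the groups overlapped at each dose, and the highest value was that of control mouse 1. Glandular stomach markers ranged from 0.91 to 5.97 in D0, from 5.03 to 6.45 in D1, from 1.25 to 6.58 in D2 and from 1.30 to 6.22 in D3, and their part in these values was not tested. Ordered over the 12 groups, the mean level of Neat1 was highest in lung D3 (0.18), lung D2 (-0.17), liver D0 (-0.41) and forestomach D0 (-0.48). It was lowest in liver D3 (-2.59), liver D1 (-2.65) and liver D2 (-2.88). Neighbours in this order were farther apart than the larger of their SDs at 3 places, between forestomach D1 and lung D0, between lung D1 and liver D3, and between liver D1 and liver D2.

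**Figure D1:**
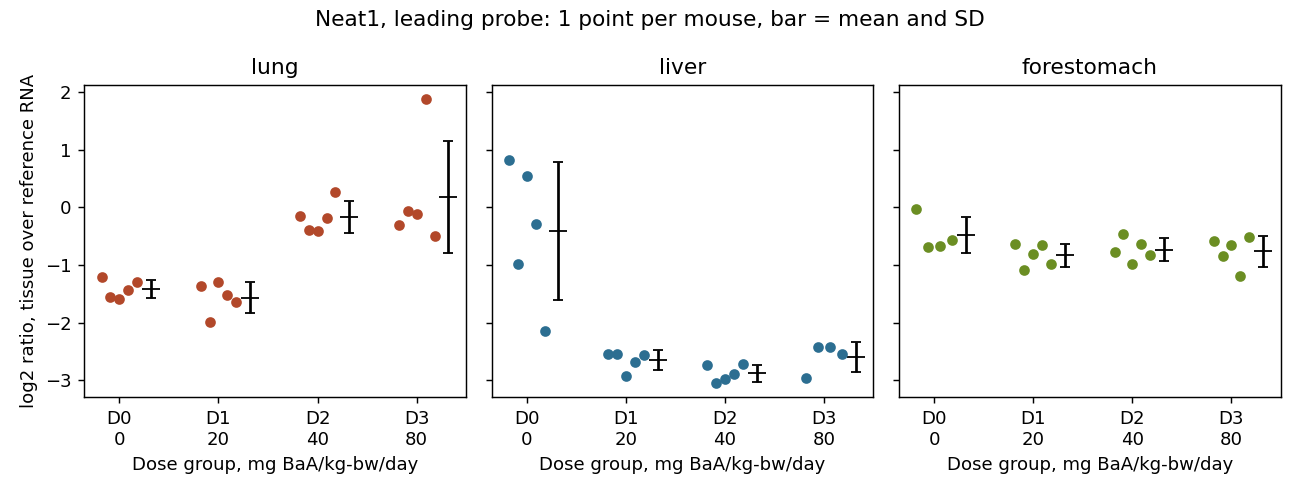
Level of Neat1 (leading probe, log2 ratio of tissue to reference RNA) by tissue and dose in mg/kg-bw/day, with 1 point per mouse and the mean and SD of each group beside the points. The lungs at D2 and D3 lie above all lung controls and the dosed livers below all liver controls, and mouse 19 stands at 1.88 in lung D3.

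The 6 probes of Neat1 gave nearly the same picture. Their log2 ratios correlated with r of 0.973 to 0.995 between probes over all arrays. Within tissues the lowest r was 0.975 in lung, 0.979 in liver and 0.715 in forestomach, where the levels varied least. Over the 6 probes, the difference from D0 ranged in lung from -0.29 to -0.14 at D1, from 1.00 to 1.26 at D2 and from 1.32 to 1.76 at D3. In liver it ranged from -2.27 to -1.95, from -2.55 to -2.27 and from -2.28 to -2.05. In forestomach it lay between -0.43 and -0.18 at the 3 doses. The probes share a transcript and are not replicates, and their positions along it are not given in the sources used here, so the short and the long isoform were not told apart.

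Malat1 was read by 1 probe and moved less. In control lungs it was at -2.64, -2.84, -2.55, -2.84 and -2.90 in mice 1 to 5. At D2 it was at -2.36, -2.36, -2.40 and -2.20 in mice 11 to 14, above every control, while the spot of mouse 15 was marked as an outlier by the scanner software and left out. At D3 it was at -2.35, -2.33, -2.39, -2.05 and -2.83 in mice 16 to 20, and mouse 20 lay within the controls. In lung, 3.36% of all probes tested were higher at D2 without overlap, with up to 5 dosed mice per probe against 4 for Malat1. The difference from D0 in lung was -0.15 (SE 0.13) at D1 (0.14 with median centring), 0.42 (SE 0.13) at D2, with 4 dosed mice, and 0.37 (SE 0.13) at D3. With median centring the differences were 1.15 at D2 and 0.62 at D3. This centring moved the median of all probes by 0.18, 0.37 and 0.15 from D1 to D3. For probes about as bright as Malat1 the median moved by 0.25, 0.50 and 0.23. Mouse 19, the highest for Neat1, was also the highest lung for Malat1, and mouse 20 was the lowest of D3 for both.

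In liver, Malat1 was lower in the dosed groups. The controls were at -3.09, -3.13, -3.15, -3.44 and -3.38 in mice 1 to 5. D1 livers were at -3.61, -3.99, -3.88, -3.50 and -3.87 in mice 6 to 10, all below the controls, and D3 livers at -3.76, -3.69, -3.73 and -3.47 in mice 16 to 19, likewise. D2 livers, at -3.57, -3.81, -3.43, -3.40 and -3.51 in mice 11 to 15, overlapped the controls. Of all probes tested in liver, 0.895% were lower without overlap at D1 and 2.86% at D3. The difference from D0 was -0.53 (SE 0.11), -0.31 (SE 0.11) and -0.43 (SE 0.12) at D1, D2 and D3, which is 1.45-fold, 1.24-fold and 1.34-fold lower. From the background-subtracted signals of the scanner software they were -0.98, -0.87 and -0.83, and with median centring the D2 difference was -0.53. In forestomach it was -0.06, -0.07 and 0.05, and the groups overlapped at each dose.

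**Figure D2:**
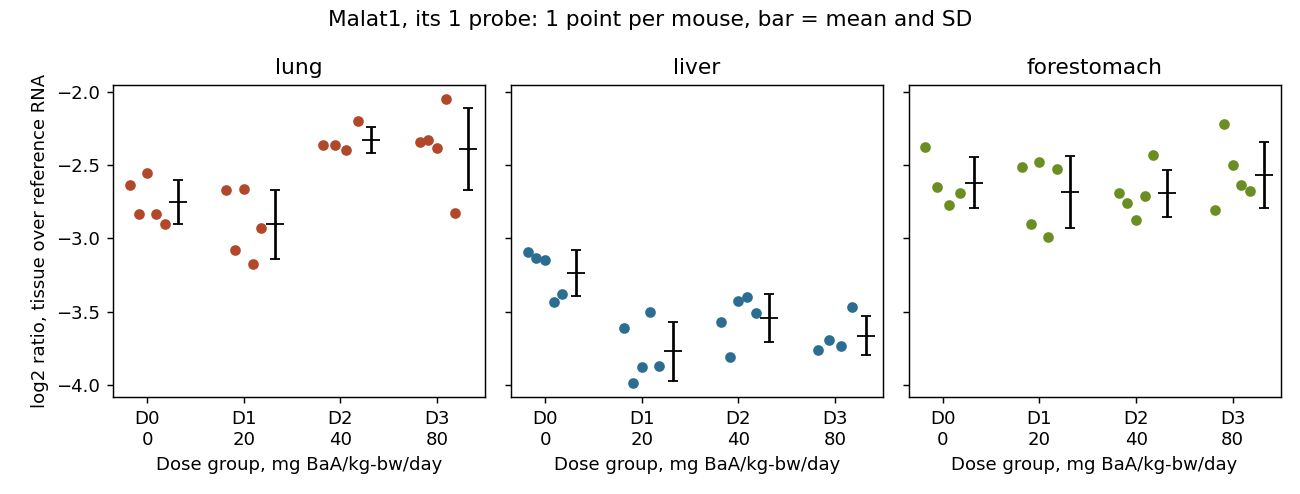
Level of Malat1 (log2 ratio of tissue to reference RNA) by tissue and dose in mg/kg-bw/day, with 1 point per mouse and the mean and SD of each group beside the points. Lungs at D2 lie above the lung controls and livers at D1 and D3 below the liver controls, and the axis spans a smaller range than that of Neat1.

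The order of the Malat1 levels over the groups differed from that of Neat1. It ran from lung D2 (-2.33) and lung D3 (-2.39) through all 4 forestomach groups (-2.69 to -2.57), lung D0 (-2.75) and lung D1 (-2.91) down to the 4 liver groups. Control liver (-3.24) was below every lung and forestomach group for Malat1, whereas for Neat1 it had rank 3 of 12. Neighbours were farther apart than the larger of their SDs only on both sides of liver D0.

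On the same arrays, Neat1 and Malat1 correlated with r = 0.837 in lung, 0.704 in liver and 0.154 in forestomach (19 arrays each, which share dose groups, slides and normalisation). Within dose groups, with each group's mean removed, r was 0.621 in lung, with a permutation p of 0.0637 and 0.53 after Benjamini-Hochberg adjustment over the 9 relations computed. Spearman's rho was 0.442 (permutation p = 0.0799, adjusted 0.359), and r was 0.319 without mice 19 and 20. Within the 3 lung slides it was 0.68, 0.565 and 0.501. In liver and forestomach r was 0.304 and 0.14 (permutation p = 0.247 and 0.589, adjusted 0.53 and 0.757). Between tissues of the same mouse, r ranged from -0.349 to 0.444 over 6 relations, each with an adjusted permutation p of at least 0.53. With median centring the within-group r was 0.904 in lung (permutation p adjusted 9e-05) and 0.96 in forestomach (permutation p adjusted 0.00063), the within-slide values being 0.688, 0.717 and 0.772 in lung and 0.371, 0.685 and 0.673 in forestomach. That centring also shifted the median of probes as bright as Neat1 by 0.57 and as Malat1 by 0.50 in lung D2. The part of such shifts in these r values was not tested. By the log2 ratios of the authors, r was 0.647 in lung and -0.00651 in forestomach (permutation p adjusted 0.173 and 0.98).

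**Figure D3:**
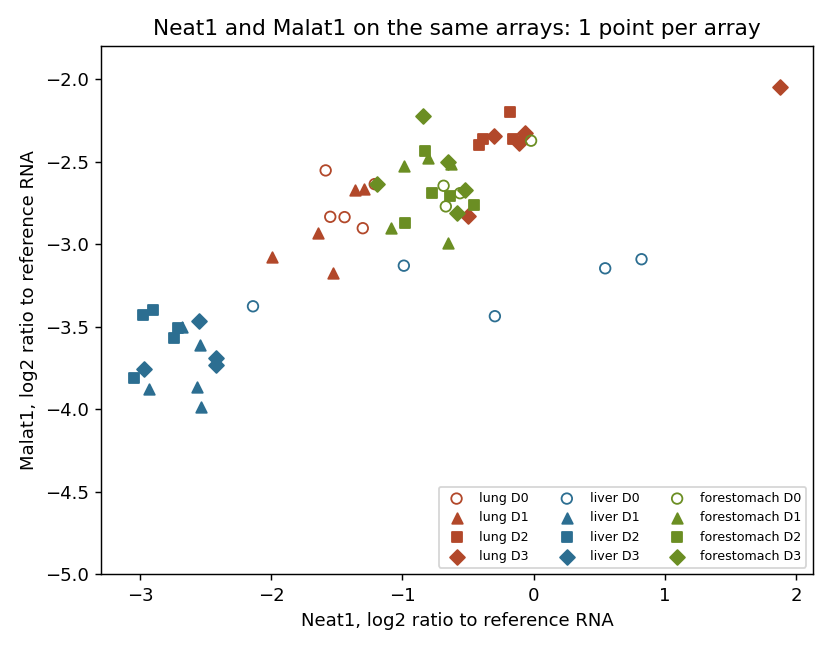
Neat1 (x axis) against Malat1 (y axis), both as log2 ratio of tissue to reference RNA, with 1 point for each of 57 arrays, colour for tissue and shape for dose group. Dosed livers lie at the low end of both axes, while the control livers spread from -2.14 to 0.82 along Neat1 and from -3.44 to -3.09 along Malat1.

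The array also holds probes named by a genomic interval (mm9) and an F or R suffix whose meaning the files do not state. On chromosome 19 between Mb 5.7 and 5.9, 27 such probes fell into 7 intervals, and 25 of them were bright enough to be tested in each tissue. These are not counted as members, since no annotation of mm9 was used here. The GRCm38.p6 coordinates of the promoter above were not set against them, and whether an interval lies within either gene was not determined. Interval A (chr19:5771425-5848475, R) had 1 probe above background, interval B (chr19:5798135-5800557, R), interval C (chr19:5801802-5802597, R) and interval D (chr19:5834117-5835940, R) had 3 each, and the others carried the suffix F.

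The probe of interval A followed Malat1 closely, with r = 0.971 over all arrays and 0.93, 0.834 and 0.871 within lung, liver and forestomach. Its differences from D0 were -0.29, 0.32 and 0.19 in lung and -0.38, -0.27 and -0.36 in liver. Interval D was lower in lung at each dose, with differences of -0.42, -0.62 and -0.79 (SE 0.21) at D1, D2 and D3. At D3 its mean over the 3 probes was -1.68, -1.52, -1.54, -1.35 and -1.42 in mice 16 to 20, all below the controls, which were at -1.33, -1.03, -0.78, -0.58 and 0.13. The gap between the highest D3 lung and the lowest control was small, and 2.66% of all probes tested were lower at D3 without overlap. In liver interval D spread widely, from -0.84 to 1.32 in controls, and its differences were 0.32, -0.43 and -0.84 (SE 0.61 to 0.64).

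The mean of interval C was below that of its controls in lung and in liver at each dose. In lung its differences from D0 were -0.20, -0.52 and -0.65 (SE 0.20), although mouse 15 at 2.41 in D2 and mouse 20 at 2.50 in D3 lay within the range of the controls (2.17 to 2.75). The Cy3 reference signal of the interval differed from D0 by 0.34 at D2 and 0.35 at D3 in lung, and its part in these differences was not tested. In liver the D3 animals were at -1.08, -1.26, -1.34 and -1.34, below all controls (-0.52 to -0.01), a difference of -1.02 (SE 0.16), with a Cy3 difference of -0.26. Of all probes tested in liver, 2.86% were lower at D3 without overlap. In forestomach the difference at D3 was -0.34 (SE 0.12), also without overlap, against 1.08% of all probes there. In each of these comparisons the 3 probes of the interval agreed in sign. In lung at D2 and D3 they were lower while the Malat1 probe was higher. Their r with the Malat1 probe was -0.693 to -0.568 within lung, 0.396 to 0.468 within liver and 0.32 to 0.458 within forestomach. Interval B differed by -0.30, -0.26 and -0.28 in lung and by 0.05, 0.22 and -0.66 (SE 0.29 to 0.31) in liver, with overlap at each dose. In control tissue, interval C was highest in lung (2.23 to 2.87 over its probes) and lowest in liver (-0.33 to -0.07), and interval D was highest in forestomach (1.74 to 1.85) and lowest in lung (-0.81 to -0.66).

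**Figure D4:**
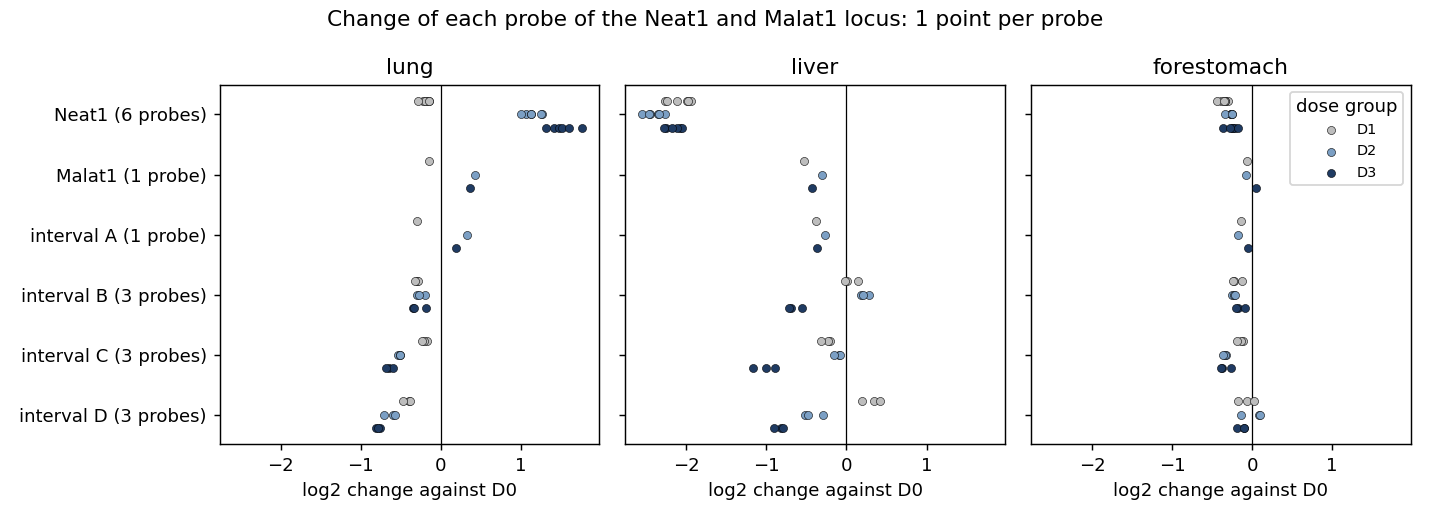
Difference from D0 (log2) at D1, D2 and D3 for each probe of Neat1, Malat1 and the 4 intervals with the R suffix, in lung, liver and forestomach, with 1 point per probe. The 6 Neat1 probes move together, to the right of 0 in lung at D2 and D3 and to the left in liver, while intervals C and D lie to the left of 0 in lung.

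The D3 difference of Neat1 was 3.78 higher in lung than in liver on the log2 scale (SE 0.45, joint model of all 12 groups) and 1.87 higher in lung than in forestomach (SE 0.45). The joint model assumes 1 spread for all 12 groups, while the SD of Neat1 ranged from 0.15 in liver D2 to 1.20 in liver D0. Between liver and forestomach it was -1.90 (SE 0.46). For Malat1 the corresponding values were 0.79 (SE 0.18), 0.31 (SE 0.18) and -0.48 (SE 0.18).

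The genes of proteins that share the nuclear bodies with these RNAs were compared next. The arrays measured their RNA and no protein, so a rise or fall below is that of the RNA. Testing used limma over all probes of a tissue, with a call at an adjusted p of at most 0.05 and a fold change of at least 1.5. The gene lists were chosen with earlier results of these data known, so their shares beside those of all genes are a description. Of 36 paraspeckle protein genes, 0 were called at D1 in lung, 2 at D2 and 5 at D3 (13.9%), against 0%, 0.764% and 2.60% of all genes tested in lung. The median change of the list at D3 was 0.08, and that of all genes 0.04. Cirbp, a cold-inducible RNA-binding protein, rose by 1.29 (SE 0.15, adjusted p = 4.78e-05) at D3 and by 0.84 (adjusted p = 0.0056) at D2. Ewsr1, an RNA-binding protein, rose by 0.61 (adjusted p = 0.00116) and Akap8l, a nuclear anchoring protein, by 0.68 (adjusted p = 0.0123), each in 5 of 5 mice. Rbm3, the other cold-inducible protein, was lower by one of its 3 probes (-0.59, adjusted p = 0.0276), while the other probes gave 0.13 and -0.16. Akap8l lost its call without mouse 19 and Rbm3 without any one of mice 2, 3, 4, 17 and 18.

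The remaining genes of proteins needed for paraspeckles were not called at D3 in lung. Sfpq was at -0.52 (adjusted p = 0.000713) by one probe, which missed the fold minimum, and at -0.19 (adjusted p = 0.238) by another. Rbm14 was at -0.45 (adjusted p = 0.000468) and -0.17 by its probes, Nono at 0.09 and 0.11, Dazap1 at 0.20, and Hnrnpk at 0.11 and -0.06. In liver, 1 of 35 tested paraspeckle genes was called at D1, Hnrnph1, a splicing regulator (-0.59, adjusted p = 0.0287, lost without any one of mice 1, 2, 3, 4, 6, 8 and 10), and 0 at D2 and D3, where 11 and 8 had an unadjusted p under 0.05 by limma. Of all genes, 0.249%, 0.714% and 0.432% were called in liver. In forestomach 0 of 36 were called at any dose, with 4, 4 and 8 at an unadjusted p under 0.05, against 0%, 0.00663% and 0.0199% of all genes.

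Of 18 nuclear speckle protein genes, 2 were called in lung at D3 (11.1%), against 2.60% of all genes tested there. In liver 1 was called at D1 and 1 at D3 (5.56% each), against 0.249% and 0.432% of all genes. Bclaf1, which takes part in RNA processing, rose by 0.59 by one probe (adjusted p = 0.000343), while its other probe gave -0.23 (adjusted p = 0.399). Acin1, a component of the complex left at exon junctions, fell in lung (-0.82, adjusted p = 0.0206) and in liver at D3 (-0.73, adjusted p = 0.0278), with a second probe at -0.42 and -0.18. Pnn, a protein of the same complex, fell in liver at D1 (-0.71, adjusted p = 0.0119). The lung call of Acin1 was lost without any one of mice 4, 5, 17 and 19, its liver call without any one of mice 1, 3, 17, 18 and 19, and that of Pnn without mouse 1. Of the enzymes that act at the 3′ ends of Neat1 and Malat1 (RNase P subunits, Elac2, Trnt1 and Mettl16), 0 of 12 were called in lung or liver and 0 of 13 in forestomach by limma, with 5, 2 and 1 at an unadjusted p under 0.05 at D3. Of 5 transcription factors known to act on the Neat1 promoter (Trp53, Hif1a, Epas1, Hsf1 and Atf2), 0 were called, with 2, 2 and 0 at an unadjusted p under 0.05 at D3 in lung, liver and forestomach.

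Of 37 other long noncoding RNAs listed, 22 had a named probe, and 19, 18 and 19 could be tested in lung, liver and forestomach. The share called was 5.26% in lung D2 and 10.5% in lung D3, against 0.764% and 2.60% of all genes. In liver D2 it was 5.56%, against 0.714%. In lung, Mir17hg, the host transcript of a microRNA cluster, rose at both upper doses, by 0.59 in D2 (adjusted p = 0.0483) and 0.81 in D3 (adjusted p = 0.00269). Kcnq1ot1, an imprinted antisense RNA, fell at D3 by one probe (-0.61, adjusted p = 0.00498), with the other at -0.12 (adjusted p = 0.473). In liver, Meg3, another imprinted RNA, fell at D2 (-1.28, adjusted p = 0.033), from 0.82 ± 0.79 (SD, n = 5) to -0.46 ± 0.12 (SD, n = 5), again with a wider spread in the controls. The call of Mir17hg at D2 was lost in 16 of the 20 fits that left out 1 mouse, and that of Meg3 in 9 of 19, without any one of mice 1, 2, 3, 4, 11, 12, 13, 14 and 15. Of the 12 nearest named protein-coding genes on both sides of the locus, Slc25a45, a mitochondrial carrier, rose in lung at D3 (0.64, adjusted p = 0.000102, in 5 of 5 mice). The other 11 were not called, among them the immediate neighbour Frmd8 (0.32, adjusted p = 0.08). Thus 8.33% of these neighbours were called in lung at D3, against 2.60% of all genes. Ewsr1 (mice 1, 3 and 18), Bclaf1 (mice 3, 4, 18 and 19), Kcnq1ot1 (mouse 3) and Slc25a45 (mouse 19) dropped below the fold minimum without any one of the mice named, with an adjusted p of at most 0.0162 by limma. Over all 6 lists, 10 of 102 genes tested in lung were called at D3 (9.80%), 7 higher and 3 lower, against 2.60% of all genes. With each array centred on its median in place of loess, 0 of the 102 were called at D2 or D3 in lung, and with slide as a block added to that, 13 and 17 were. In liver the counts over the lists were 2, 1 and 1 of 97 at D1, D2 and D3 (2.06%, 1.03% and 1.03%), against 0.249%, 0.714% and 0.432% of all genes. They rose to 6 at each dose without control mouse 5, for which the share of all genes is not given here.

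Several of these genes, like Neat1, differed between lung and liver in their D3 change. By limma's interaction test, 12 of 97 listed genes were called (12.4%), against 2.45% of all genes. This contrast is a description, since the lists were chosen with earlier results of these data known. Mir17hg changed by 0.81 in lung and by -0.61 in liver (difference 1.42, SE 0.23, adjusted p = 5.85e-05), and Meg3 by 0.64 and -1.24 (difference 1.88, SE 0.42, adjusted p = 0.00425). Son, the scaffold protein of nuclear speckles, changed by 0.49 and -0.25 (difference 0.74, SE 0.12, adjusted p = 8.43e-05), each below the fold minimum within its tissue. Rmrp, an RNA of the RNase MRP complex, went the other way (-0.58 and 0.38, difference -0.95, adjusted p = 0.0432). The calls of Rmrp and of Snhg1 were each lost in 11 of the 20 fits that left out 1 mouse, and that of Cirbp in 7. Between lung and forestomach 1 of 102 genes was called, Akap8l, against 0.331% of all genes, and 0 without mouse 19 (limma, 19 at an unadjusted p under 0.05 with all mice). With median centring 0 genes were called in either comparison with lung. Between liver and forestomach 0 of 97 were called by limma, with 19 at an unadjusted p under 0.05, against 0.0597%.

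**Figure D5:**
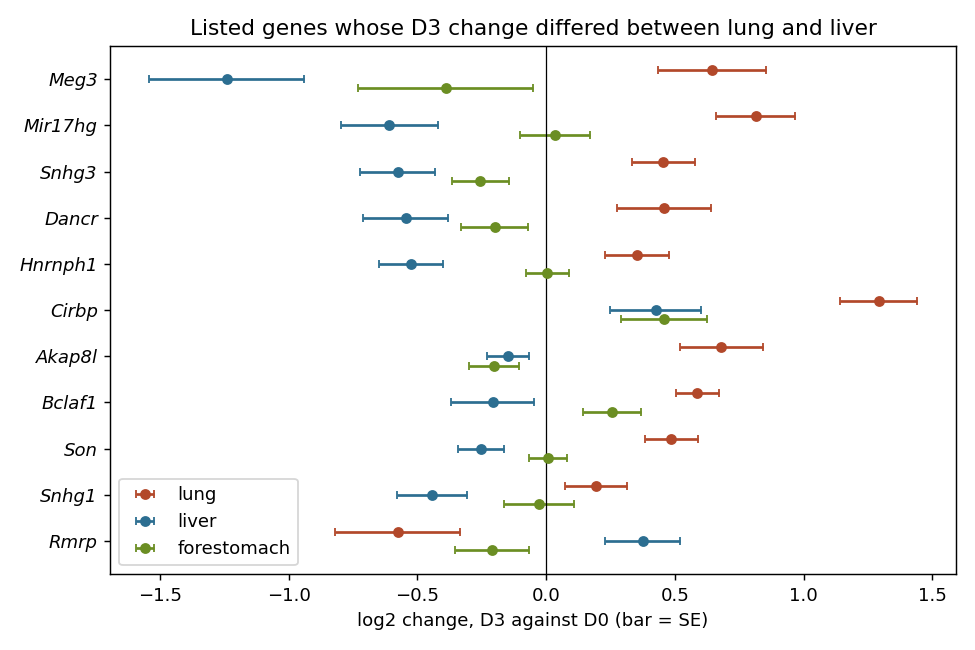
Change at D3 against D0 (log2, points with SE bars) in lung, liver and forestomach for 11 listed genes whose change differed between lung and liver by limma. In lung 10 of the 11 lie above 0 and Rmrp below, and in liver 9 lie below 0 while Cirbp and Rmrp lie above.

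The genes whose pattern over the arrays of a tissue was most like that of Neat1 were different in each tissue. In lung (20 arrays) they were Ankrd16 (r = 0.977), Rgs11 (r = 0.974) and Zc3h7a (r = 0.971), which changed at D3 by 0.76, 0.98 and 0.83. In liver (19 arrays) they were Ccnl2 (r = 0.955), Pisd-ps3 (r = 0.946) and Rab24 (r = 0.943), and Ccnl2, a cyclin of splicing complexes, differed from D0 by -1.44, -1.54 and -1.30 from the low to the high dose. In forestomach (19 arrays) they were Snap23, Smc5 and Lce1a1, with r of 0.795 to 0.822. For Malat1 they were Tsr3, Gtpbp6 and Dicer1 in lung (r = 0.904 to 0.918), Zfp692, Acat1 and Tecpr1 in liver (r = 0.808 to 0.836), and Scube2, Pcnx and Fibin in forestomach (r = 0.853 to 0.897). These are the highest of 12042 to 15087 genes compared and are given as a description.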

How the data were processed

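Total RNA (200 ng per array) was labelled and hybridised to 2-colour Agilent mouse arrays. Each deposited array file holds linear intensities of its spots, which the file headers credit to Feature Extraction 10.7.3.1. LOWESS-normalised log2 ratios from the authors, deposited as one matrix, served as an alternative. They correlated with the ratios computed here with r of 0.995 to 0.998 per array (median absolute difference 0.032), their column medians lay between -0.0445 and -0.0222, and their direction is tissue over reference.

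Median signals without background correction, as in the study's methods, were normalised by loess within each array with control spots given no weight, using limma 3.58.1 in R 4.3.3. Outlier-marked spots (0.495%) were left out and spots of a probe averaged. Symbols came from RefSeq by accession for 26413 of 55681 probes. Testing needed a Cy5 signal well above background on at least 4 arrays of the tissue, passed by 30383 lung, 22789 liver and 32318 forestomach probes. One limma model per tissue held the 4 dose groups. Calls needed an adjusted p (Benjamini-Hochberg) no higher than 0.05 and at least 1.5-fold change, thresholds taken from the study, whose MAANOVA test was replaced by limma. A gene was called if any probe was. Tissue differences came from a joint model of all groups. Deviations within groups were permuted 100000 times, two-sided. The code was tested on simulated data, and figures were drawn with matplotlib 3.10.9.

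The members and lists were chosen with earlier results of these data known. Named genes were at most the 4 largest calls per list and tissue, and for likeness the 3 genes of highest r. The fifth called paraspeckle gene, the uncalled ones and Slc25a45's neighbours were named after their values were seen. Same-numbered tissues came from the same mouse per the labels. Their deviations over all probes correlated with a median r of 0.124 for lung and liver, 0.109 for lung and forestomach and 0.0615 for liver and forestomach. Some members of the gene and marker lists are not reported here by name. The number of arrays limits the precision.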

Additional observations from a re-analysis of the deposited data

Results flagged for a closer look

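Among 60 groups of 4 or 5 mice examined for Neat1, Malat1 and intervals B, C and D, a mouse stood apart from its group 2 times. Chance alone gives about 1 in 20 groups, a rate that 2 of 60 does not exceed. Neat1 in the D3 lung of mouse 19 was at 1.88, with the other 4 lungs between -0.50 and -0.07, and its gap to the nearest of them was 0.818 of the range of the group. Interval D in the D3 liver of mouse 18 was at 1.44, with the others between -1.07 and -0.92, a gap of 0.94 of the range.

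The D3 change of Neat1 went up in every lung and down in every liver relative to the mean of the controls, a difference of 3.78 on the log2 scale. This difference was not tested, because the gene was chosen with these changes known. By limma's interaction test, the signed D3 change was higher in lung than in liver by 1.88 for Meg3, 1.42 for Mir17hg, 1.03 for Snhg3, 1.00 for Dancr, 0.88 for Hnrnph1, 0.87 for Cirbp, 0.83 for Akap8l, 0.79 for Bclaf1, 0.74 for Son and 0.64 for Snhg1. The lung minus liver difference of Rmrp was -0.95. For Akap8l the D3 change was also higher in lung than in forestomach, by 0.88 (adjusted p = 0.00559, limma).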

How the results depend on the processing

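Of the results that answer a comparison, 218 values under an alternative stayed near the reported one and 49 moved. Another 1 reversed, Neat1 in forestomach D2, and 2 passed a threshold they had missed. Turns of sign in Malat1 are counted among the values that moved. Median centring of each array in place of loess changed most. It shifted the median change of all tested probes by 0.18, 0.37 and 0.15 in lung (D1, D2, D3), by 0.06, -0.17 and -0.06 in liver and by -0.03, 0.13 and -0.07 in forestomach. Probes within 0.5 of a member's log2 brightness shifted more in lung, by 0.30, 0.57 and 0.27 for Neat1 and 0.25, 0.50 and 0.23 for Malat1. In forestomach D2 they shifted by 0.25 for Neat1 and 0.20 for Malat1. Values under median centring are read relative to the shift of probes as bright, and each difference whose sign turned was no larger than that shift to 2 decimals. Under median centring Neat1 differed by 1.77 in lung D2 and by 0.0331 in forestomach D2, with the sign turned. Malat1 differed by 0.14, 1.15 and 0.62 in lung, by -0.53 in liver D2 and by 0.17 in forestomach D2, with the sign turned in lung D1 and forestomach D2, and its D3 change differed by 1.11 between lung and liver and by 0.66 between lung and forestomach. Counts of listed genes called became 0 and 0 in lung D2 and D3, 0, 4 and 0 in liver, and 0 and 0 for the lung differences, and the within-group r of Neat1 with Malat1 became 0.904 in lung (permutation p adjusted 9e-05) and 0.96 in forestomach (permutation p adjusted 0.00063). With slide as a block added to median centring, an alternative chosen after seeing the data, Malat1 differed by 0.0887 in lung D1, 0.62 in lung D3 and -0.51 in liver D2, Neat1 by -0.10 in forestomach D1, and the counts were 13 and 17 in lung D2 and D3 and 0, 10 and 3 in liver. The cause of these shifts was not tested.

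The other counts that moved were 6 in lung D2 with Agilent's processed signals, and 9 and 29 in lung D2 and D3 without a fold minimum. In liver D1, D2 and D3 they were 1, 2 and 2 with the authors' log2 table, 1, 1 and 2 with normexp, 1, 4 and 2 with Cy5 alone, and 0, 0 and 0 with only the 2 groups compared. In liver D2 and D3 they were 6 and 2 with processed signals, 6 and 2 without a fold minimum, and 4 and 4 with slide as a block, which also gave 4 genes between lung and forestomach and 1 between liver and forestomach. Malat1 in liver differed by -0.98, -0.87 and -0.83 with processed signals. Leaving out 1 mouse at a time, the liver counts ranged from 1 to 6, 0 to 6 and 0 to 6, both forestomach differences from 0 to 2 genes, and the Neat1 difference between lung and forestomach from 1.34 (without mouse 19) to 2.10. With mouse as a replicate block (correlation 0.0352), the counts of tissue differences stayed at 12, 1 and 0 and Neat1 at 3.78, and no call of a count changed. Of the named genes, Cirbp in lung D3 kept its call under 29 of 30 alternatives, Rbm3 under 20 of 30, Mir17hg in lung D2 under 10 of 30, Meg3 in liver D2 under 18 of 29, and Rmrp and Snhg1 under 11 of 23 each. The number of arrays, and for dim probes the signal over background, limit what could be told apart.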
